A study of Mus musculus with 32 samples.

Results

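The Slit-Robo guidance genes are the 4 mouse genes of the Robo receptors (Robo1, Robo2, Robo3 and Robo4) and the 3 genes of their Slit ligands (Slit1, Slit2 and Slit3), 7 of the 55401 gene identifiers in the count files. They were taken by symbol, and every member was found. The family was chosen by the rise of Robo3 after UV exposure in these libraries, so its values in UV against Control mice are given as a description with no test, and tests of Robo3 compare only genotypes or sexes among the UV mice. The other 6 members entered by their names and not by their values.

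Slits are large secreted proteins that bind Robo receptors on the cell surface and are best known for repelling growing axons at the midline of the nervous system. Outside the nervous system the pathway acts on the migration and adhesion of epithelial, endothelial and mesenchymal cells, through regulators of the actin cytoskeleton. Robo3 is the divergent receptor: in mammals it binds Slits poorly, takes NELL2 as a ligand and is known from commissural neurons. Robo4 is the receptor of endothelial cells.

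RNA was sequenced from the dorsal epidermis of 32 mice of the hairless strain B6.129-SKH1-Hrhr, bred from SKH-1 and Sv129/C57BL6/J mice, 10 to 14 weeks old, with 1 library per mouse. WT mice were wild type at Ppard and KO mice were Ppard-/-, deficient for the nuclear receptor PPARbeta, and the labels name no restriction to a tissue. UV mice were taken 24 h after a single sub-erythematous dose of 120 mJ/cm2, and Control mice were handled without exposure. Each sex, genotype and treatment held 4 mice, which gave 8 mice for each genotype and treatment.

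Libraries held 22919428 to 40653581 counts, so that 3 reads, the floor used for undetected genes, stood for 0.0738 to 0.131 cpm, counts scaled to the usual common library total. Values are cpm on library sizes scaled by the trimmed mean of M values (TMM), given as mean ± SD over mice. Basal keratinocyte markers summed to between 5618 and 29930 cpm and suprabasal markers to between 8625 and 106490 cpm over the 32 mice, and the sex-linked transcripts matched the labels in 32 of 32. Ppard reads were lower in KO than in WT mice but not absent, at 79.7 ± 6.87 against 95.4 ± 6.07 cpm in Control mice and 210 ± 25.7 against 282 ± 24.7 cpm in UV mice (n = 8 each). Its difference after UV was -0.42 on the log2 scale (adjusted p = 0.00114, edgeR), and counts summed over a whole gene cannot check a deletion of part of it. The KO female UV mouse 54F stood apart: its 12 dermal fibroblast markers summed to 2740 cpm, against at most 138 cpm in the other 31 mice.

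Before the values, the promoter windows of the 3 receptors whose levels moved most are shown, because Robo3 and the pair Robo1 and Robo2 went in opposite directions after UV. Each is 300 bases of RefSeq sequence on GRCm38.p6, read 5′ to 3′ on the strand of the gene, with matches to the searched motifs in capitals.
Robo3, chr9:37433126-37433425, minus strand: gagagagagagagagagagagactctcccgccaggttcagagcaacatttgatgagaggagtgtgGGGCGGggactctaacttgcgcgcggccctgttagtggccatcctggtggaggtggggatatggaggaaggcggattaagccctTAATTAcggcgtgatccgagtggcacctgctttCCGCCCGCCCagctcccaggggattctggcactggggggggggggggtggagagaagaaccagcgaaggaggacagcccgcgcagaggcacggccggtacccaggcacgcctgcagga
Robo1, chr16:72662899-72663198, plus strand: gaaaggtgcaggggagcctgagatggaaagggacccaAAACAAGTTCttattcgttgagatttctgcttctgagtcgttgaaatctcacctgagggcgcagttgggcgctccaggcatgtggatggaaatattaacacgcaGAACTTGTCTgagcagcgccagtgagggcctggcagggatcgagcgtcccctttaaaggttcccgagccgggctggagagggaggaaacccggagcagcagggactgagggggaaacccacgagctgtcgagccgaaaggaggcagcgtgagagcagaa
Robo2, chr16:74411776-74412075, minus strand: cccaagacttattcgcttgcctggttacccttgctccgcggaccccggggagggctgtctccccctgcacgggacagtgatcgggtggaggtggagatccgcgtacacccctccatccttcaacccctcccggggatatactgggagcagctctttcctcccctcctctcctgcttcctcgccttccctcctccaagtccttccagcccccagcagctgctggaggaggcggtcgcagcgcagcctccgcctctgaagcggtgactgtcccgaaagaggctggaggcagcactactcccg
The capitals mark GC boxes (GGGCGG or its reverse complement) and a TAATTA homeodomain core in Robo3, and matches to the p53 half-site in Robo1. The Robo3 window held 3 GC boxes, with the 2 nearest to each other sharing bases, and the TAATTA began 101 bases before the start site. The Robo1 window, which lies within the annotated gene, held 2 half-sites, which began 213 and 109 bases before the start site, and no GC box. The Robo2 window above, which lies at the start of the annotated gene, held none of the motifs.

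Among the 32851 promoter windows of the table, searched on both strands, 35.7% held a GC box, 5.29% the homeodomain core, 8.36% a p53 half-site and 7.15% the E-box CACGTG. The AP-1 site TGAGTCA was in 5.2% of windows, the CRE TGACGTCA in 1.79%, TATAAA in 13.6% and a direct repeat of AGGTCA with any 1 base between the copies, the form bound by PPAR and RXR pairs, in 0.0396%. Of the members with a window (all but Slit1), none held the AP-1, CRE or direct repeat letters. Robo2 had a further 2 windows at start sites farther upstream, of which 1 held an E-box, and Slit2 and Slit3 held 3 and 6 GC boxes, overlaps counted, with a TATAAA in Slit2. Such a match describes the letters of these windows only.

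The annotation placed the members at 6 loci on GRCm38. Robo1 (ENSMUSG00000022883) lies on chromosome 16 from 72308306 to 73046095, and Robo2 (ENSMUSG00000052516) on the same chromosome from 73891839 to 74411825. Robo3 (ENSMUSG00000032128, chromosome 9 from 37415669 to 37433246) and Robo4 (ENSMUSG00000032125, chromosome 9 from 37401897 to 37415115) lie end to end on opposite strands, with 553 bases between their annotated ends. Slit1 (ENSMUSG00000025020) lies on chromosome 19 from 41600257 to 41743665, Slit2 (ENSMUSG00000031558) on chromosome 5 from 47983138 to 48307733 and Slit3 (ENSMUSG00000056427) on chromosome 11 from 35121224 to 35708507. The genes differ greatly in length: Robo1, Slit3, Robo2, Slit2 and Slit1 span 738, 587, 520, 325 and 143 kb, against 17.6 kb for Robo3 and 13.2 kb for Robo4.

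Robo3 was the receptor that appeared after UV. No read of Robo3 was counted in any of the 8 WT Control mice, and 1 read in 1 of the 8 KO Control mice. After UV every mouse had between 138 and 390 reads. In the 8 WT UV mice the level was 6.19 cpm at the lowest, 9.76 at the median and 11.9 at the highest, with a mean of 9.73 ± 1.79 cpm. In the 8 KO UV mice it was 4.52 cpm at the lowest, 7.24 at the median and 14.1 at the highest, with a mean of 8.05 ± 3.02 cpm. The UV and Control mice did not overlap in either genotype.

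Against the floor of 3 counts per library, Robo3 was at least 90.2-fold higher in WT UV than in WT Control mice. The bound was 80.1-fold in males and 100.2-fold in females, and in KO females, where the controls were also at 0, it was 55.5-fold. With the single read of the KO Control males, the ratio in KO males was 1150 (exact 95% counting interval 206 to 45456). Among all 15546 genes tested, the fitted UV change of Robo3 ranked first from the top in WT and 2nd in KO. The gene was chosen by this rise, so its place is a description only. The place also depends on the prior count, because the controls had almost no reads. These intervals and bounds cover counting error only.

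Of the 3 annotated genes on each side of Robo3, the nearest is Robo4, which is described with its own reads later and was higher after UV in a fit with no filter. Msantd2, the nearest gene to pass the filter on the side away from Robo4, was at 11.8 ± 0.99 cpm in WT Control and 10.3 ± 1.41 cpm in WT UV mice, a log2 change of -0.20 ± 0.10 (SE, adjusted p = 0.0889, edgeR), and in KO mice the change was -0.15 ± 0.10 (adjusted p = 0.199). Hepacam, which encodes a glial cell adhesion protein, had at most 6 reads in a mouse, and the 3 unnamed gene models nearby, Gm47652, Gm47963 and the pseudogene Gm47945, had at most 10, 9 and 0.

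**Figure D1:**
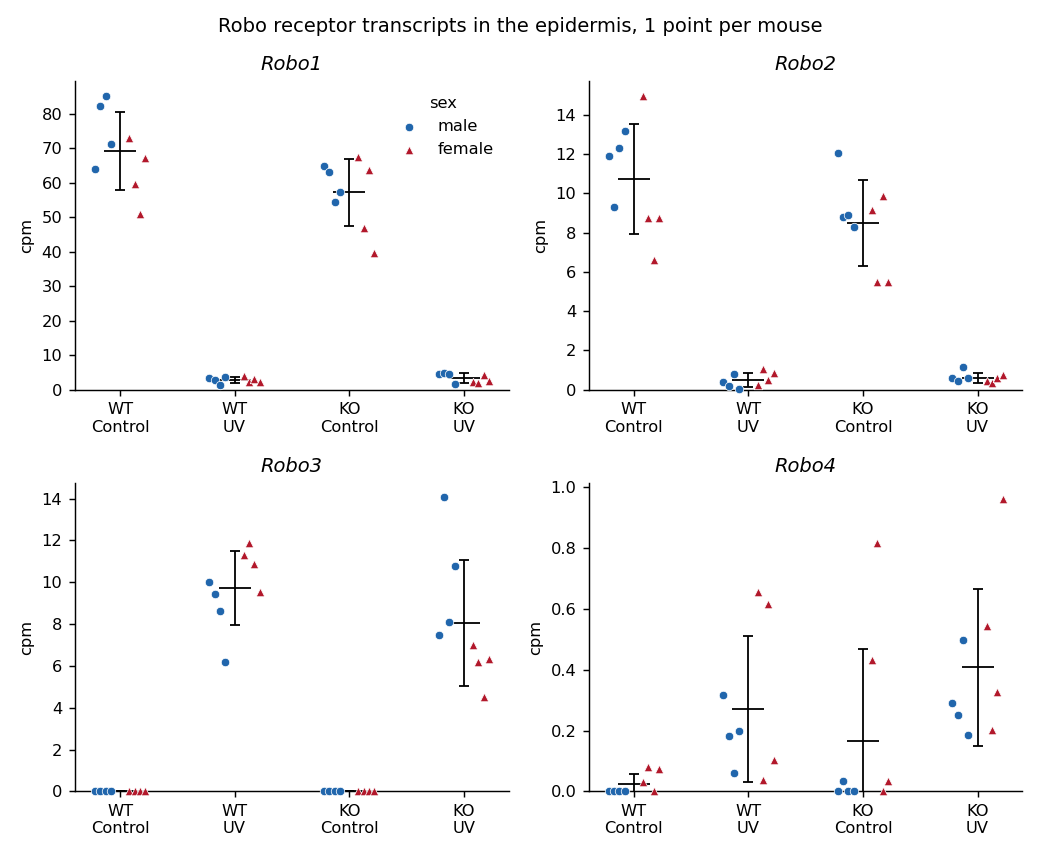
Level in cpm of the 4 Robo receptors in WT and KO mice, Control and UV, with 1 point per mouse (circles, males; triangles, females) and the mean ± SD of 8 mice as horizontal and vertical lines; each panel has its own linear axis. Robo1 and Robo2 drop to near the axis after UV while Robo3, at 0 in Control mice but for 1 read, lies between 4.52 and 14.1 cpm.

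Robo1, the receptor that dominated the unexposed epidermis, fell. In WT Control mice it was at 50.9 cpm at the lowest, 69.2 at the median and 85.3 at the highest, and in WT UV mice at 1.35, 3.06 and 3.89 cpm. In KO Control mice the lowest, median and highest values were 39.8, 60.3 and 67.5 cpm, and in KO UV mice 1.70, 3.42 and 4.90 cpm. Every UV mouse was thus below every Control mouse in both genotypes. The log2 change was -4.58 ± 0.22 (SE, adjusted p = 3.2e-16, edgeR) in WT, a 23.9-fold lower level, and -4.11 ± 0.22 (adjusted p = 1.99e-15) in KO, 17.3-fold lower.

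Robo2, the close relative that lies next to Robo1 on chromosome 16 and binds the same Slits, fell alongside it from a lower level. WT Control mice ranged from 6.59 cpm through a median of 10.6 to 15 cpm, and WT UV mice from 0.0282 through 0.462 to 1.04 cpm. In KO Control mice the range was 5.47 to 12.1 cpm around a median of 8.84, and in KO UV mice 0.347 to 1.16 cpm around 0.590. Again the treatments did not overlap. The log2 change was -4.46 ± 0.36 (adjusted p = 1.29e-11, edgeR) in WT and -3.78 ± 0.35 (adjusted p = 2.11e-10) in KO.

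These 2 falls stand against a background in which 71% of the 15546 tested genes were called in WT, 34.5% as higher and 36.5% as lower, at an adjusted p under 0.05. In KO 70.8% were called, 37.3% as higher and 33.5% as lower. Groups that did not overlap, with UV lower, made up 22.1% of all tested genes in WT and 16.5% in KO, and with UV higher 21.3% and 18.6%. In WT, 3 of the 4 testable members (Robo1, Robo2 and Slit3) were called and all 3 were lower, and in KO 3 (Robo1, Robo2 and Slit1). By size, Robo1 and Robo2 ranked 126th and 136th from the lowest of all tested genes in WT and 139th and 183rd in KO. In bulk epidermis, fewer cells that carry a transcript and less of it per cell cannot be told apart.

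Cell type markers moved in the same mice. Of the 8 suprabasal keratinocyte markers 7 fell and 1 rose in both genotypes, and their summed level went from 66970 to 77833 cpm over WT Control mice down to 13545 to 27588 cpm over WT UV mice. Basal keratinocyte markers split, with 3 of 7 up and 2 down in WT and 5 up and 1 down in KO, and summed to 7500 to 16662 cpm in WT Control and 17345 to 29930 cpm in WT UV mice. Schwann cell markers, of which 4 of 8 could be tested, summed to 57.9 to 89.0 cpm in WT Control and 44.8 to 59.2 cpm in WT UV mice, with 3 called lower in WT and 2 in KO. T cell markers fell in 7 of 8 in both genotypes, and Langerhans cell markers in 6 of 7 in WT and in 5 of 7 in KO, where 1 rose. Myeloid and neutrophil markers went the other way, with 5 of 9 up and 1 down in WT and 6 up and 1 down in KO. The part of these shifts in the values of Robo1, Robo2 and Robo3 was not tested.

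In the remaining lists single markers moved, named here after their values were seen. Hair follicle markers rose in 3 of 7 and fell in 1 in both genotypes: Sox9, Krt75 and Msx2 rose by 2.39, 2.56 and 0.54 on the log2 scale in WT and by 2.54, 1.87 and 0.67 in KO, while Lhx2 (-3.13) fell in WT and Krt79 (-0.80) in KO. Of 5 melanocyte markers Mlana and Kit rose, by 2.84 and 1.48 in WT and by 3.71 and 2.81 in KO. Of 6 markers of pericytes and smooth muscle Acta2 rose, by 0.83 in WT and 1.70 in KO, and 1 fell, Cspg4 (-1.70) in WT and Rgs5 (-3.22) in KO. None of the 6 skeletal muscle markers was called.

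Both falling receptors are very long genes, and long genes as a class were lower after UV. Of the 103 tested genes spanning 500 kb or more, 70.9% were called lower in WT and the median log2 change was -2.04, and in KO 56.3% and -1.13. In the next group, of 200 to 500 kb, the medians of 521 genes were -1.33 and -0.92. Genes of 10 to 20 kb, the span of Robo3 and Robo4, had medians of 0.12 and 0.24, and 29.8% and 26.3% were called lower. Changes below -4, as Robo1 had in both genotypes, were seen in 14.6% of the longest genes in WT and 4.85% in KO. Without mouse 54F the medians of the longest class, then of 92 genes, were -2.10 and -1.67. The part of gene length in these results was not tested.

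**Figure D2:**
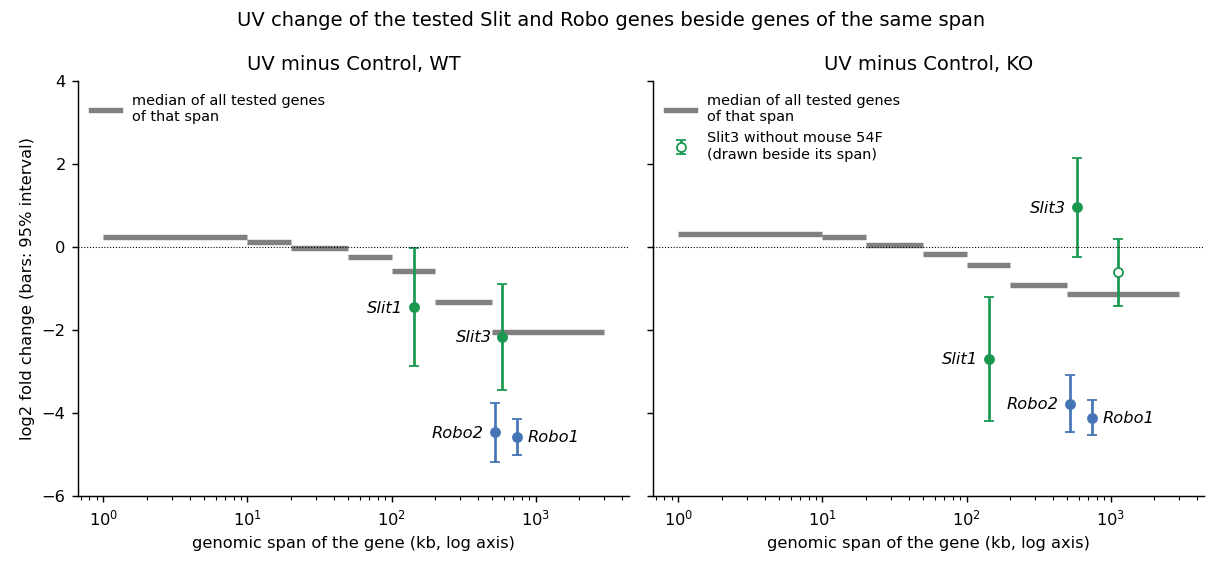
Log2 fold change from Control to UV (points, with 95% intervals) of Robo1, Robo2, Slit1 and Slit3 against the genomic span of each gene in kb on a log axis, in WT and KO mice; grey bars are the medians of all tested genes in 7 classes of span. The medians fall from 0.23 for the shortest to -2.04 for the longest class in WT, and Robo1 and Robo2 lie below the bars of their own class in both panels; the open symbol, drawn to the right of its true span, is Slit3 without mouse 54F.

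Robo4 stayed near the limit of detection and passed the filter of 1 cpm in no mouse, with at most 23 reads. Summed over 8 mice it had 5 reads in WT Control and 64 in WT UV mice, a ratio of 11.9 (exact 95% counting interval 4.86 to 38), and 34 and 88 reads in KO mice, a ratio of 2.60 (1.73 to 3.99). These intervals cover counting error only and not the spread between mice. Reads were found in 3 of 8 WT Control mice and 4 of 8 KO Control mice, and in all 16 UV mice. The groups overlapped in both genotypes.

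Fitted with no filter on low counts, Robo4 rose after UV by 4.16 ± 0.92 (adjusted p = 0.000433, edgeR) on the log2 scale in WT and by 2.57 ± 0.78 (adjusted p = 0.00877) in KO. Of the 30756 genes in that fit 40.3% were called in WT and 39.8% in KO, 20.0% and 20.3% as higher. The fit averages the log2 changes of the sexes, whereas the ratios above sum the reads. From Control to UV, reads summed to 1 and 34 in KO males but 33 and 54 in KO females. In WT they summed to 0 and 24 in males and 5 and 40 in females. In KO Control mice, 32 of the 34 reads came from the females 44F and 60F, with 0.431 and 0.816 cpm. These 2 mice also had the highest summed endothelial markers of that group, 30.8 and 30.2 cpm, against 5.99 and 12 cpm in the other 2 KO Control females. The same mice were highest of that group in 3 further lists. Fibroblast markers summed to 138 and 118 cpm in 44F and 60F, and pericyte and smooth muscle markers to 107 and 167 cpm. Most of the pericyte and smooth muscle sum was Des, at up to 156 cpm in KO Control mice. No other marker of that list exceeded 3.67 cpm there. Skeletal muscle markers summed to 2258 and 3466 cpm. Of the 13 endothelial markers 12 could be tested, and 5 rose and 3 fell after UV in WT while 6 rose in KO, where the sum ran from 5.99 to 30.8 cpm in Control and from 9.19 to 81.7 cpm in UV mice. The part of RNA from endothelial or these other cells, and of the Robo3 transcript that ends 553 bases away, in the Robo4 reads was not tested.

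Compared per length of exon, the leading Robo receptor changed. Levels between genes are given as cpm per kilobase of exon (RPKM). In WT Control mice Robo1 was at 4.19 ± 0.69 RPKM and Robo2 at 0.631 ± 0.165, with Slit1 at 0.264 ± 0.199, Slit3 at 0.181 ± 0.081 and Robo4, Slit2 and Robo3 at or below 0.00434. The order was the same in KO Control mice, with Robo1 at 3.47 ± 0.59 RPKM, except that Robo2 and Slit1 lay within their spread at 0.50 ± 0.129 and 0.442 ± 0.332. Slit1 and Slit3 also lay within their spread in both genotypes.

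After UV, Robo3 headed the order in WT at 1.42 ± 0.26 RPKM, followed by Robo1 at 0.175 ± 0.051 and by Slit1, Robo4, Slit3 and Robo2 at 0.106, 0.0510, 0.0414 and 0.0297, neighbours that did not differ beyond their spread. In KO UV mice Robo3 was at 1.18 ± 0.44 RPKM, Slit3 at 0.888 ± 2.17, a mean carried by mouse 54F, and Robo1 at 0.203 ± 0.083, followed by Slit1, Robo4 and Robo2 at 0.0844, 0.0768 and 0.0365. As a share of the RPKM summed over the 4 receptors, Robo1 went from 86.9% ± 2.38 to 10.7% ± 3.92 in WT and from 86.8% ± 1.14 to 14.2% ± 6.14 in KO (n = 8 each). Robo3 went from 0% to 84.7% ± 4.13 in WT and from 0.0148% to 77.7% ± 8.29 in KO. The receptor sum itself was lower after UV, at 1.68 ± 0.30 against 4.83 ± 0.79 RPKM in WT and 1.49 ± 0.45 against 4.00 ± 0.69 RPKM in KO. Because Robo3 belongs to these sums, the shares are a description.

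**Figure D3:**
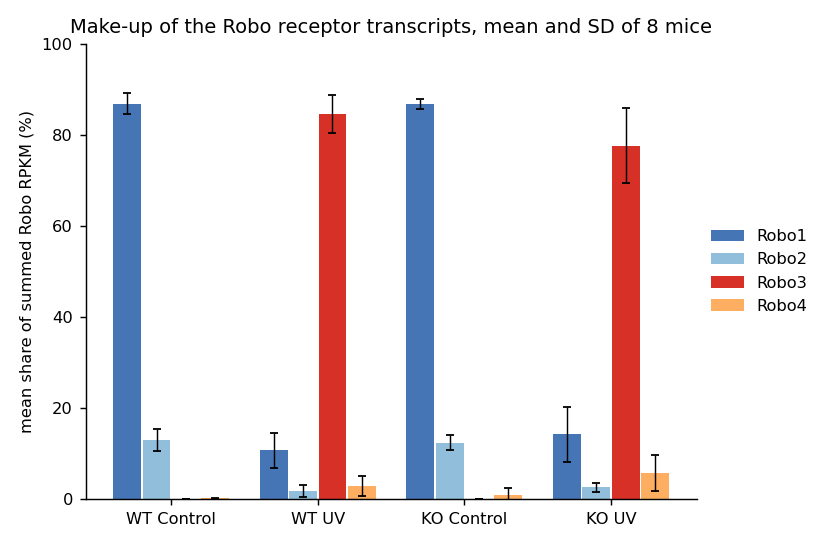
Share of each Robo receptor in the RPKM summed over the 4 receptors, in percent, as the mean (bars) and SD (lines) of 8 mice per genotype and treatment. Robo1 makes up 86.9% and 86.8% in WT and KO Control mice and Robo3 84.7% and 77.7% in WT and KO UV mice.

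The Slit ligands were at 6.02 cpm or less in every mouse but 54F, in which Slit3 was high. Slit1, which is best known from neurons, varied widely, from 0.0736 to 2.97 cpm around a median of 1.57 in WT Control and from 0.177 to 6.02 cpm around 2.66 in KO Control mice. After UV it ranged from 0.0682 to 1.14 cpm around 0.555 in WT and from 0 to 2.52 cpm around 0.20 in KO mice. The groups overlapped in both genotypes. Slit1 fell in KO mice, with a log2 change of -2.70 ± 0.76 (adjusted p = 0.00251, edgeR). In WT mice its change was -1.45 ± 0.73 (adjusted p = 0.0763), and the change in KO did not differ from that in WT by test (-1.25 ± 1.03, adjusted p = 0.529). In males alone the KO change was -1.73 (adjusted p = 0.141), and with the 16 WT mice fitted alone the WT change was -1.44 (adjusted p = 0.0443). It was also called without the WT mouse 54M (-1.65, adjusted p = 0.0399) or 77F (-1.75, adjusted p = 0.05).

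Slit2, the ligand most often studied with Robo1, was barely detected, with at most 12 reads in a mouse. Its reads summed to 17 in WT Control and 6 in WT UV mice, and to 27 in KO Control and 12 in KO UV mice. The ratio of UV to Control was 0.329 (exact 95% counting interval 0.106 to 0.876) in WT and 0.447 (0.206 to 0.913) in KO. Here too the intervals cover counting error only. With no filter on low counts neither change was called (adjusted p = 0.20 in WT and 0.528 in KO, edgeR). The KO Control reads again came mostly from 44F and 60F, with 12 and 8 of 27. In that group these mice were also highest for endothelial, fibroblast, pericyte and skeletal muscle markers, where the pericyte sum was mostly Des.

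Slit3, which is made by fibroblasts and other mesenchymal cells, fell in WT mice. The 8 WT Control mice ranged from 0.669 to 2.12 cpm around a median of 0.931, and the 8 WT UV mice from 0.0690 to 0.654 cpm around 0.164, without overlap. The log2 change was -2.17 ± 0.65 (adjusted p = 0.00434, edgeR), and in females alone -1.84 (adjusted p = 0.0799). Slit3 spans 587 kb, and the tested genes of 500 kb or more had a median change of -2.04 in WT. In KO Control mice Slit3 ranged from 0.318 to 1.79 cpm around 1.13. In KO UV mice 7 of 8 lay between 0.216 and 2.03 cpm and mouse 54F was at 37.9 cpm, or 1310 reads. With this mouse the KO change was 0.95 ± 0.61 (adjusted p = 0.165), and without it -0.61 ± 0.41 (adjusted p = 0.183).

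The mouse with high Slit3 was the mouse with high fibroblast markers. All 12 markers of dermal fibroblasts, among them the collagen genes Col1a1, Col1a2 and Col3a1, had their highest level in 54F. The list summed to 29.5 to 95.3 cpm in WT Control and 10.1 to 20.4 cpm in WT UV mice, and 4 of 12 markers fell after UV in WT, or 7 of 12 in the fit without 54F. In KO mice it summed to 14.9 to 138 cpm in Control and, with 54F left out, none of the 12 rose and 5 fell after UV. No fibroblast marker was without reads in 54F. The part of dermal RNA in the Slit3 values was not tested.

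**Figure D4:**
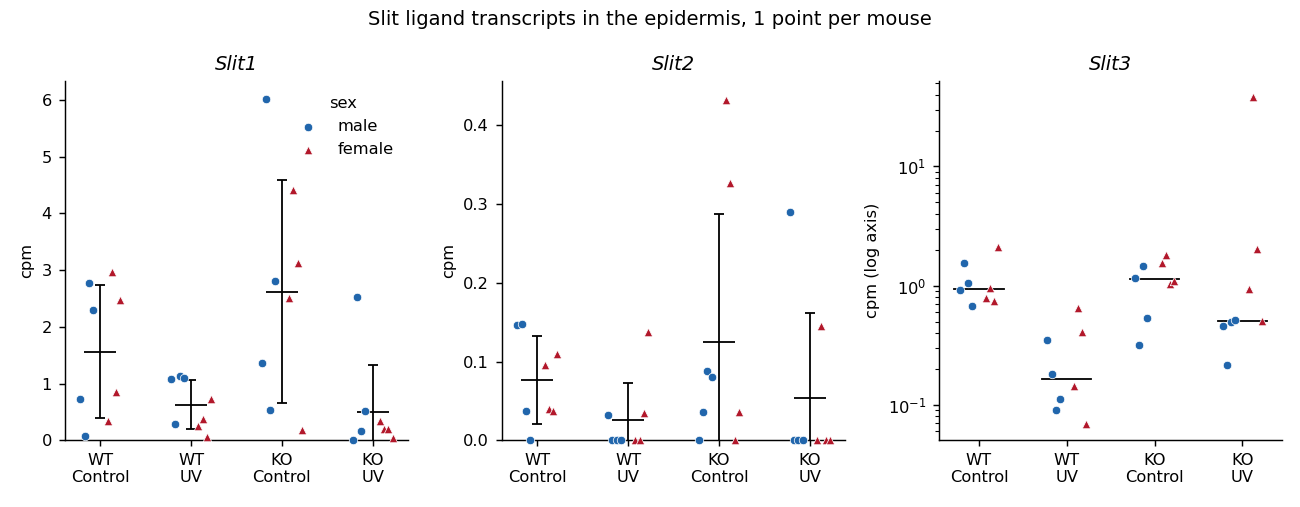
Level in cpm of Slit1 and Slit2 (linear axes, mean ± SD of 8 mice) and Slit3 (log axis, horizontal line at the median) with 1 point per mouse, circles for males and triangles for females. Slit3 in WT UV mice lies below all WT Control mice, and the KO female 54F is at 37.9 cpm.

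**Figure D5:**
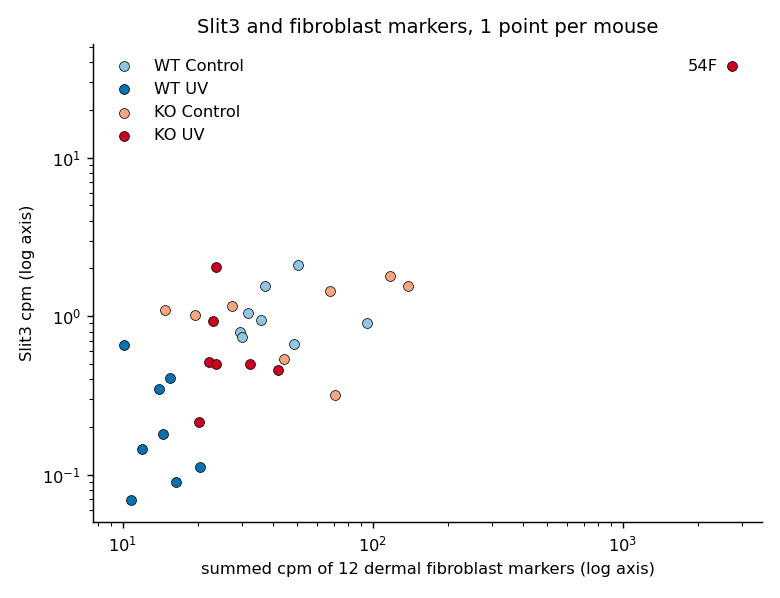
Slit3 in cpm against the summed cpm of 12 dermal fibroblast markers, both on log axes, with 1 point per mouse in the 4 combinations of genotype and treatment. Mouse 54F, at 2740 cpm of markers and 37.9 cpm of Slit3, lies apart from the other 31 mice, which have at most 138 cpm of markers.

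The next comparison asked whether loss of PPARbeta altered these genes. Without UV no member was called between the genotypes by edgeR, DESeq2 or limma, or passed an unadjusted p of 0.05 in edgeR, where 0.206% of all tested genes were called. Robo1 differed by -0.27 on the log2 scale, KO minus WT (95% interval of the difference -0.63 to 0.09, adjusted p = 0.747, edgeR), and Robo2 by -0.34 (-0.93 to 0.26, adjusted p = 0.848). Slit1 differed by 0.75 (-0.62 to 2.11) and Slit3 by -0.02 (-1.18 to 1.14). Such intervals leave room for sizeable differences in the ligands.

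After UV, 3.31% of genes were called between the genotypes, 2.69% as higher in KO. Robo1 differed by 0.20 (95% interval -0.21 to 0.60, adjusted p = 0.638, edgeR) and Robo2 by 0.35 (-0.34 to 1.04, adjusted p = 0.625). Robo3 was at 9.73 cpm in WT and 8.05 cpm in KO mice, a log2 difference of -0.31 (-0.67 to 0.05, adjusted p = 0.365), with overlapping groups. Slit1 differed by -0.50 (-1.98 to 0.98, adjusted p = 0.771). Slit3 was the 1 member called, higher in KO by 3.10 ± 0.67 (adjusted p = 0.0142), and this call rested on 54F: without that mouse the difference was 1.51 ± 0.43 (adjusted p = 0.0722), where 1.38% of genes were called. The change with UV did not differ between the genotypes by test for Robo1 (0.46 ± 0.28, adjusted p = 0.358), Robo2 (0.69 ± 0.47, adjusted p = 0.428) or Slit3 (3.12 ± 0.89, adjusted p = 0.0823, and 1.52 ± 0.58, adjusted p = 0.159, without 54F), in a comparison that called 0.765% of all genes. DESeq2 did call Slit3 there (3.09, adjusted p = 0.0158), and so did edgeR without the KO female 52F (3.31, adjusted p = 0.0393) or 74F (3.26, adjusted p = 0.0409).

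The genotype difference of Robo3 after UV looked unlike in the sexes. The 4 WT females were at 9.52, 10.8, 11.3 and 11.9 cpm and the 4 KO females at 4.52, 6.17, 6.34 and 6.99 cpm. The 4 WT males were at 6.19, 8.62, 9.45 and 10.0 cpm and the 4 KO males at 7.49, 8.08, 10.8 and 14.1 cpm. Females therefore did not overlap, with KO lower, a pattern that 4.81% of all genes showed, and males overlapped. In females the difference was -0.86 ± 0.26 (adjusted p = 0.0441, edgeR), where 9.91% of genes were called, and in males 0.24 ± 0.26 (adjusted p = 0.91), where 0.142% were. The difference between the sexes, added after the values had been seen, was -1.10 ± 0.37 (adjusted p = 0.162) and was called for 0.122% of genes. A difference between the sexes was thus not shown for Robo3. Mouse 54F was at 6.17 cpm, and the other 3 KO females were also below every WT female. Of the 12 marker lists 4 also separated KO from WT females after UV without overlap. Endothelial markers summed to 29.5 to 81.7 cpm in KO against 11.8 to 20.6 cpm in WT, fibroblast markers to 23.1 to 2740 against 10.1 to 15.5 cpm, Langerhans cell markers to 571.1 to 964 against 440 to 488 cpm, and hair follicle markers to 221 to 632 against 664 to 1748 cpm. The hair follicle sum was mostly Krt79, at 768 ± 320 cpm in WT UV and 519 ± 224 cpm in KO UV mice of both sexes. Every other marker of that list had a mean of 59.8 cpm or less in these groups. T cell markers (60.2 to 83.4 against 28.1 to 62.6 cpm) and suprabasal markers (8625 to 19873 against 13545 to 22331 cpm) overlapped. The part of these lists in the Robo3 values was not tested.

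Females and males, which the study compared in their response to UV, were compared over both genotypes. Without UV none of the members that passed the filter was called or passed an unadjusted p of 0.05 in edgeR, with 6.86% of all genes called, and none was called by DESeq2 or limma. Under a filter that also kept Robo4, that gene was called higher in females (4.09 ± 1.13, adjusted p = 0.0427, edgeR). That fit called 653 of 16613 genes. Robo4 reads were few: 5 in WT and 33 in KO Control females, against 0 and 1 in males. Of the 33, mice 44F and 60F held 12 and 20. In the fit without 54F, 7 of 12 endothelial and 2 of 12 fibroblast markers were higher in females without UV. Leaving out 1 mouse at a time, 467 to 1752 of all genes were called for this comparison. The part of RNA from such cells in the Robo4 call was not tested. After UV Robo3 differed by -0.20 (95% interval -0.56 to 0.16, adjusted p = 0.584, edgeR) and Robo1 by -0.24 (-0.64 to 0.16, adjusted p = 0.547). Slit3 was called higher in females after UV by 2.70 ± 0.67 (adjusted p = 0.0307), with 3.03% of genes called and 1.88% higher in females. It was not called without 54F (1.12 ± 0.43, adjusted p = 0.184), where 1.08% of genes were. Nor was it called when 57F, 57M, 59F, 59M or 71M was left out (2.40 to 2.64, adjusted p 0.0503 to 0.067). The change of each tested member with UV did not differ by test between the sexes (adjusted p at least 0.619). In that comparison edgeR called 0 of 15546 genes (0.0%), with 1091 at an unadjusted p under 0.05, while DESeq2 called 22 and limma 2, none of them a member.

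The partners of the family moved in both directions. Of 17 extracellular partners and co-receptors 15 could be tested, and 6 rose and 8 fell in WT and 5 rose and 7 fell in KO after UV, with medians of -0.19 and -0.23 against -0.01 and 0.09 over all genes. Over all tested genes 34.5% were called higher and 36.5% lower in WT, and 37.3% and 33.5% in KO. Flrt1, of the family of adhesion proteins that bind Robo receptors, fell from 10.5 to 0.154 cpm in WT, a log2 change of -6.09 ± 0.52 (adjusted p = 3.87e-11, edgeR), and from 9.71 to 0.189 cpm in KO, a change of -5.64 ± 0.51. Ntn4, a netrin of basement membranes, also fell, with log2 changes of -3.20 ± 0.38 in WT and -1.88 ± 0.36 in KO. Sdc3, a heparan sulphate proteoglycan of the kind that bridges Slit and Robo, rose by 2.06 ± 0.46 in WT and 2.86 ± 0.46 in KO, and Ntn1, the midline attractant, by 1.95 ± 0.57 and 2.96 ± 0.58. Both were low in WT, Sdc3 going from 1.39 to 5.82 cpm and Ntn1 from 0.318 to 1.14 cpm. The other syndecans, named after their values were seen, changed less in WT. Sdc1 went from 877 to 1122 cpm (0.35), Sdc4 from 265 to 233 cpm (-0.19) and Sdc2 from 3.80 to 2.23 cpm (-0.78). Without 54F the KO changes of Sdc3 and Ntn1 were 2.06 and 2.39 and were still called. Nell1 and Nell2, of which NELL2 is the ligand of Robo3, did not pass the filter, with Nell2 at a mean of 0 cpm in 3 of the 4 combinations of genotype and treatment and 0.0136 cpm in WT UV mice.

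Of 28 intracellular effectors and regulators, all testable, 9 rose and 14 fell in WT and 9 rose and 16 fell in KO, with medians of -0.17 and -0.20. The shares over all tested genes were 34.5% higher and 36.5% lower in WT, and 37.3% and 33.5% in KO. The Slit-Robo GTPase activating proteins, which bind the receptor tail and switch off small GTPases, all fell. Srgap1 fell from 63.5 to 5.64 cpm in WT, a log2 change of -3.49 ± 0.28 (adjusted p = 8.48e-12, edgeR), and Srgap2 from 208 to 24.0 cpm, a change of -3.11 ± 0.19. In KO mice the changes were -3.55 ± 0.28 and -2.97 ± 0.19. Srgap3, named for its family after its values were seen, had changes of -2.72 ± 0.37 in WT and -1.53 ± 0.35 in KO. Enah, an actin regulator that binds Robo1, rose by 1.30 ± 0.12 in WT and 1.19 ± 0.12 in KO, and the kinase Abl2 by 2.34 ± 0.10 and 2.40 ± 0.10. The GTPases themselves, Rac1, Cdc42 and Rhoa, also named after their values were seen, rose by 0.80, 0.19 and 0.43 in WT and 0.80, 0.21 and 0.46 in KO.

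Of 7 netrin receptors, the family that shares midline signalling with Robo proteins, 3 could be tested. Over all tested genes 71% were called after UV in WT and 70.8% in KO. Neo1 (neogenin) fell from 222 to 23.1 cpm in WT, a log2 change of -3.26 ± 0.13 (adjusted p = 6.96e-18, edgeR), and from 229 to 24.1 cpm in KO, a change of -3.24 ± 0.13. Unc5b fell in WT (-0.66 ± 0.15) and Unc5a rose in KO (1.81 ± 0.48). Dcc, the partner of Robo3 in neurons, had no reads in any mouse.

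Between the genotypes few partners were called. None was without UV, where 0.206% of all tested genes were called. After UV, where 3.31% of all genes were called, Srgap3 was called higher in KO (adjusted p = 0.0402, edgeR). Usp33, a deubiquitinase that binds Robo1, was called lower (adjusted p = 0.0371), and both were named after their values were seen. Without 54F Usp33 was called (-0.28 ± 0.07, adjusted p = 0.038) and Srgap3 was not (1.04 ± 0.36, adjusted p = 0.125). Between the sexes, Cap1, Ndfip1, Ndfip2 and Neo1 were lower in females without UV, where 6.86% of all genes were called. After UV, where 3.03% were, Ndfip2 was lower (-0.25 ± 0.06, adjusted p = 0.0285, edgeR). These were also named after their values were seen, and Ndfip2 was not called after UV without 54F (-0.22 ± 0.06, adjusted p = 0.0744). Beside these shares of all genes, so few calls do not set the partners apart.

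The genes most like each member were found by Pearson correlation of log2 cpm over the 32 mice, which share the split into Control and UV, so the coefficients are a description. Robo3 was closest to Nkx2-9, a homeodomain factor of the ventral neural tube, with r = 0.996. Nkx2-9 was also at 0 in all Control mice and at 2.15 ± 0.53 cpm in WT UV and 1.92 ± 0.72 cpm in KO UV mice. Next came Polk, the translesion DNA polymerase kappa, with r = 0.994 and 14.1 ± 1.5 cpm in WT Control against 74.3 ± 6.33 cpm in WT UV mice, then Gm38103 (0.994), the cytokine signalling suppressor Socs5 (0.992) and the cytochrome Cyp4f17 (0.992). Robo1 was closest to Lrp4 (0.988), Gnptab (0.984) and Mycl (0.984), and Robo2 to Kxd1 (0.958), Gpt (0.957) and the basal keratin Krt15 (0.950), which went from 258 ± 115 to 3.9 ± 1.78 cpm in WT. Slit1 had weaker companions, led by Pi4k2a (0.785). Slit3 was closest to Igfbp4 (0.894), Scara3 (0.83) and Islr (0.827), and without 54F these coefficients were 0.816, 0.716 and 0.701.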

How the data were processed

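Epidermal RNA of 32 mice was made into TruSeq Stranded mRNA libraries and sequenced as single reads. Per the labels and the study's methods, the authors trimmed reads with Cutadapt 1.8, aligned them with STAR 2.5.3a to GRCm38 and deposited raw counts per gene from htseq-count 0.9.1. The strand setting of the counting is not given in the sources used here. Rows that name no gene were left out; reads without a feature were 6.80% to 9.75% of uniquely aligned reads.

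A gene was tested when any mouse reached 1 cpm (15546 genes, including 5 of the 7 members). edgeR 4.0.16 in R 4.3.3 fitted 8 group means with TMM scaling and the quasi-likelihood test. P-values were adjusted by Benjamini-Hochberg over all tested genes, at 0.05, intervals are normal 95% intervals and standard errors were derived from the F statistic. Limma 3.58.1, DESeq2 1.42.0, another scaling, other filters, each sex or genotype and leaving out each mouse were alternatives, and the fit was tested on simulated data. RPKM used the exon length of GENCODE M21. Replicates of 1 group differed beyond counting noise in all 48 pairs. The labels name 1 mouse per library, and littermates were not identified.

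The members, the lists and the tests were chosen with earlier results of these data known. Named were the members, Ppard, the 2 largest called rises and falls of 3 pathway lists per UV contrast, the 3 genes on each side of Robo3, the 5 genes most like Robo3 and the 3 most like each other tested member. Marker lists of 12 cell types were examined.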

Additional observations from a re-analysis of the deposited data

Results flagged for a closer look

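In 46 groups of 4 mice with more than 3 reads of a member in any mouse, 7 held a mouse whose gap to the nearest other mouse took up more of the group's range than Dixon's 95% critical value for 4 samples. Chance flags about 1 in 20 groups of normally distributed values. A group in which only 1 mouse has reads, as for Slit2 here, is always flagged. Robo1 was at 1.70 cpm in the KO male UV mouse 72M, where the others lay between 4.59 and 4.90 cpm. Robo2 was at 12.1 cpm in the KO male Control mouse 34M, against 8.27 to 8.87 cpm. Slit1 was at 0.291 cpm in the WT male UV mouse 38M, against 1.08 to 1.14 cpm. Slit2 was at 0.145 cpm (5 reads) in the KO female UV mouse 54F and at 0.290 cpm (7 reads) in the KO male UV mouse 58M, where the others had no reads. Slit3 was at 37.9 cpm in 54F, against 0.50 to 2.03 cpm, and at 2.12 cpm in the WT female Control mouse 73F, against 0.740 to 0.951 cpm.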

How the results depend on the processing

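Depth limits Robo4 and Slit2, with at most 23 and 12 reads in a mouse. Of the single values refitted with each setting other than leaving out a mouse, 223 kept their direction and side of the threshold, 14 turned direction, 5 lost and 4 gained a call, and the causes were not tested. Turned values were on the log2 scale. In males or females alone they were -1.02 for Slit3 (UV, KO males), 0.25 for Slit3 (genotype without UV, females) and, for genotype after UV, -0.093 for Robo1 and -0.32 for Robo2 in females and 0.24 for Robo3 in males. Slit3 without UV between genotypes, near 0 in the main fit, was 0.0021 with the scaling of DESeq2 in edgeR and 0.0059 in DESeq2. In 1 genotype alone the sex differences were -0.071 for Slit1 without UV (KO), 0.047 for Robo1 and 0.35 for Robo3 after UV (WT) and -0.44 for Robo2 after UV (KO), and the sex difference of the UV change was 0.32 (WT) and 0.036 (limma) for Robo1 and -0.098 for Robo2 (KO). The number of members called between genotypes after UV was 1, and 0 in males and 2 in females alone. It was 1 instead of 0 for the genotype difference of the UV change in DESeq2 and for sex without UV under filterByExpr (Robo4), and 0 instead of 1 for sex after UV in WT alone and in limma. Leaving out each mouse gave 3 to 4 members called for UV in WT, 3 in KO, and 0 to 1 for genotype after UV, its interaction with UV and sex after UV. In those fits Slit3 ranged from -0.61 to 1.15 for UV in KO and from -0.19 to 0.23 for genotype without UV, Slit1 from -0.17 to 0.43 for sex without UV, Robo1 from -0.20 to 0.033 for the sex difference of the UV change, and the bound on Robo3 in WT from 87.4 to 94.9-fold. Over all genes, calls between genotypes after UV numbered 514 (418 higher and 96 lower in KO), 1116 in DESeq2 (724 and 392), 260 in limma (187 and 73), 535 with DESeq2's scaling in edgeR (376 and 159), 620 under filterByExpr (361 and 259), 263 with no filter and 133 to 983 without 1 mouse. Calls of the interaction numbered 119, 841 in DESeq2 and 55 with no filter, of sex after UV 471, 1196 and 239, of sex without UV 1066, 1676 and 327, and of genotype without UV 32 and, in DESeq2, 78. No paired analysis was possible because the labels number mice with a sex letter and no 2 groups share 2 or more numbers.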
